A study of Arabidopsis thaliana with 6 samples.

Results

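The thalianol and marneral cluster genes of Arabidopsis thaliana are 7 genes on chromosome 5 that make 2 root triterpenes. They were chosen by gene ID, and all 7 had a row among the 34262 of the deposited table. Messenger RNA was sequenced from whole seedlings of lhp1-3, of importin123 and of Col-0, with 2 libraries per genotype and 6 in all. lhp1-3 is a mutant of LHP1 (LIKE HETEROCHROMATIN PROTEIN1), and importin123 is labelled as a triple mutant of impα, the importin alpha adaptor that carries cargo proteins into the nucleus. Col-0 is the wild type, both mutants are in the Col-0 background, and no mutation was common to all groups. Seedlings were grown on MS medium (0.5 strength, 0.8% sucrose) in days of 16 h light and 8 h dark, and were collected at ZT12, 12 h after lights on. Their age is not in the labels. Whether the 2 libraries of a genotype are separate plantings is not stated either; a p-value here reflects only how far these libraries spread, which may be technical.

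In Arabidopsis, oxidosqualene cyclases fold 2,3-oxidosqualene into sterol or triterpene skeletons. THAS1, the thalianol synthase, and MRN1, the marneral synthase, each make the skeleton of their pathway, and cytochrome P450 enzymes and an acyltransferase encoded beside them modify it. Both clusters are known to be expressed mainly in roots and to carry the Polycomb mark H3K27me3 in tissues where they are silent, and LHP1 is a reader of that mark. MARS (AT5G00580), a long noncoding RNA of the marneral cluster known to bind LHP1, was not analysed here.

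By the RefSeq annotation of TAIR10.1, the thalianol cluster spanned 32.8 kb of chromosome 5, from 19428888 to 19461706, and the marneral cluster 34.7 kb, from 17023502 to 17058245, with 2.37 Mb between them. In the thalianol cluster AT5G47980, CYP705A5 (AT5G47990) and THAS1 (AT5G48010) lay on the plus strand and THAH (AT5G48000, also named CYP708A2) on the minus strand. In the marneral cluster CYP705A12 (AT5G42580) and CYP71A16 (AT5G42590) lay on the minus strand and MRN1 (AT5G42600) on the plus strand. THAS1 and MRN1 each had 14 exons, and their coding sequences were identical at 73.1% of aligned bases and their proteins at 70.7% of aligned residues. CYP705A5 and CYP705A12, of one P450 family, each had 2 exons and were identical at 66.2% of coding bases. The longest run of bases shared exactly with any place elsewhere in the genome was between 26 bases for AT5G47980 and 84 bases for THAH.

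The 250 bases before the annotated start are shown for the cyclases and for THAH and CYP71A16, the 2 members that passed the test in both mutants after the library floor was subtracted. Capitals mark the TATA-type motif TATAAA or its reverse complement TTTATA, and the GAGA-type motif GAGAGA or its reverse complement TCTCTC. The orientations of the TATA-type motif can overlap each other. The sequences are from RefSeq, build TAIR10.1, and read 5′ to 3′ on the strand of the gene.
THAS1, chr5:19456587-19456836, plus strand: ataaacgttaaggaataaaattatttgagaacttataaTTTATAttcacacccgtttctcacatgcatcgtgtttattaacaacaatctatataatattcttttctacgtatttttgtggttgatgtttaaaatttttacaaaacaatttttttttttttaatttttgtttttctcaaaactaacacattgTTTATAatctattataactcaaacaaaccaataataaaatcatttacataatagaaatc
THAH, chr5:19447867-19448116, minus strand: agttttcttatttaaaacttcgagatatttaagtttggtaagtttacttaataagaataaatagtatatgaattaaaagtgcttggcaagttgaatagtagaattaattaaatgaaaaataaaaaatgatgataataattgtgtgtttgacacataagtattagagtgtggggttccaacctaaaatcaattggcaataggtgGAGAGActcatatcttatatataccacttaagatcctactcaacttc
MRN1, chr5:17053203-17053452, plus strand: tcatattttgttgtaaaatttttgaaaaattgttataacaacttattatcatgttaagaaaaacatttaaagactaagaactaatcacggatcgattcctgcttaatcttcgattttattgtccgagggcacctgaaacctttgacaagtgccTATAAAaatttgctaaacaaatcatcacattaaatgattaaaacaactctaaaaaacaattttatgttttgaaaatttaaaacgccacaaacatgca
CYP71A16, chr5:17033801-17034050, minus strand: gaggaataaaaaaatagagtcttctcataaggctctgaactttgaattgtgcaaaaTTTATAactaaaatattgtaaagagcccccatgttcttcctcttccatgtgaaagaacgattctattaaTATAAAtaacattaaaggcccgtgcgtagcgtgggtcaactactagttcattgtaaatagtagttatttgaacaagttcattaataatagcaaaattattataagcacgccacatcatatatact
TATAAA on either strand lay in 5 of the 7 windows and in 47.3% of 27443 such windows of protein-coding genes. GAGAGA lay in 1 of 7, at position -47 of THAH, and in 20.6% of all windows. AAACCCTA, a telobox, lay in 0 of 7 and in 4.49% of all windows. A match describes these letters only. No other annotated gene overlapped any of the 7 windows.

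Library totals ran from 70137900 to 95101900 counts (to 6 significant digits). The mutant libraries carried more reads on genes that were nearly silent. The median RPKM (reads per kb of gene span, scaled to the library total) over the 2306 lowest protein-coding genes was 1.53 and 1.44 in lhp1-3, 1.79 and 1.32 in importin123, and 0.206 and 0.248 in Col-0. Chloroplast features took 14.9% and 14.5% of counts in lhp1-3, 18.7% and 13.7% in importin123, and 2.95% and 3.27% in Col-0. Each member is therefore given as deposited and after each library's floor, its median reads per kb on the silent genes, was subtracted, and this floor-subtracted level is per kb of gene span and scaled to library size as RPKM is, with TMM factors. What puts these reads there was not tested. As a check of the genotypes, LHP1 fell in lhp1-3 (log2 fold change after subtraction -1.02), and IMPA1, IMPA2 and IMPA3 fell in importin123 (-3.51, -5.42 and -1.87).

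After floor subtraction the log2 fold change of all 7 members was positive in lhp1-3, and it stayed positive in each of 15 alternative fits. The 2 that passed the test, at an adjusted p under 0.05 over 19698 genes, were THAH, an enzyme that hydroxylates thalianol, and CYP71A16, the enzyme that oxidises marneral. No member was lower. The background was 9.1% of genes called higher and 7.18% called lower in lhp1-3. The median over the members was 0.71, against -0.03 over all genes tested. Without lhp1-3 library 1, lhp1-3 library 2 or Col-0 library 2 the count was 0, with 2.45%, 6.36% and 4.9% of all genes called higher in those fits. Without Col-0 library 1 it was 5, with 8.34% of all genes called higher.

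In importin123 the members were more uneven. CYP71A16, AT5G47980 and THAH rose, no member was called lower, and the MRN1 libraries overlapped with those of Col-0. The background was 19.3% of genes called higher and 21.7% called lower in importin123, so 3 of 7 higher is to be read against about that share. The median over the members was 0.30, against -0.00375 over all genes tested. Without importin123 library 1 only CYP71A16 passed, with 11.6% of all genes called higher in that fit.

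On the counts as deposited the picture differed. There 1 member was lower in lhp1-3, CYP705A5, and in importin123 1 was higher, CYP71A16, and 3 were lower, CYP705A5, THAS1 and CYP705A12. Over 33906 features the background was 41.8% higher and 33.5% lower in lhp1-3, and 42.3% higher and 33.2% lower in importin123. Without Col-0 library 1 CYP705A5 stood at -0.15 in lhp1-3, and in importin123 CYP705A5 stood at -0.19, THAS1 at -0.31 and CYP705A12 at -0.15. The 4 lower calls (log2 fold changes between -0.50 and -0.37) all had a sign change when limma was run on RPKM, which is scaled to library totals only. The median log2 fold change over the members was 0.06 in lhp1-3, with 4 of 7 above 0, and -0.28 in importin123, with 2 of 7 above 0. Both lay below the median over all features tested, which was 0.17 in lhp1-3 and 0.20 in importin123 with TMM scaling. The median over all features moved by -0.18 and -0.17 with RLE size factors. After subtraction the same scaling moved the medians by 0.01 or less. The versions differ in more than the floor. After subtraction, organelle features and genes near the floor were left out, and TMM was computed on the genes kept. CYP705A5 counts were 60.9 and 74.4 times the floor in lhp1-3 and 579 and 324 times in Col-0, so the floor was a small part of them. Its log2 fold change in lhp1-3 was -0.44 as deposited and 0.27 after subtraction. The parts of floor and scaling in such shifts were not tested.

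**Figure D1:**
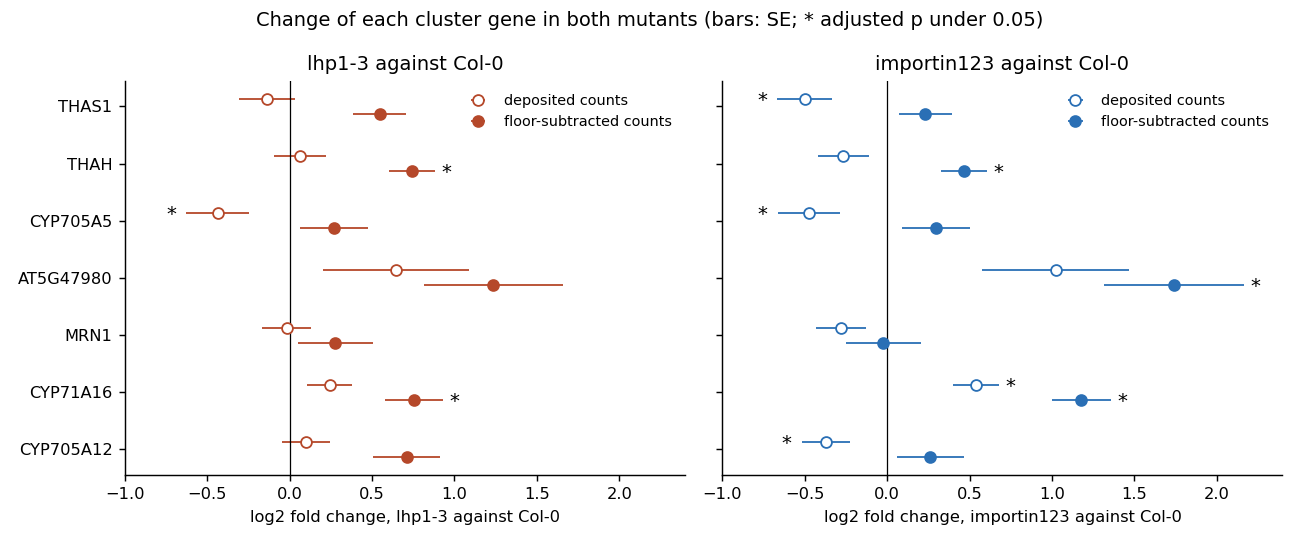
Log2 fold change of each cluster gene (horizontal axis) in lhp1-3 against Col-0 (left) and importin123 against Col-0 (right), from deposited counts (open) and floor-subtracted counts (filled); bars are the SE and stars mark an adjusted p under 0.05. The filled points lie to the right of the open ones for every gene, and in lhp1-3 all 7 filled points are above 0.

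Of the cyclases, THAS1 was the more abundant in all 6 libraries. Its floor-subtracted level was 56.8 and 56.1 in lhp1-3, 50.1 and 40.8 in importin123, and 43.8 and 33.6 in Col-0. Both lhp1-3 libraries stood above both Col-0 libraries, while 1 importin123 library lay between the Col-0 libraries. The log2 fold change was 0.54 ± 0.16 (SE) in lhp1-3, with an adjusted p of 0.0531, and 0.23 ± 0.16 in importin123, with an adjusted p of 0.275, so neither passed. In lhp1-3 the value passed in 6 of the 15 alternatives, among them without Col-0 library 1 (0.75), with DESeq2 (0.55, adjusted p = 0.00573), with only the 4 libraries compared (0.57) and with both higher floors (0.59 and 0.65). As RPKM the values were 43.6 and 41.1 in lhp1-3, 36.4 and 33.4 in importin123, and 39.0 and 29.4 in Col-0. On deposited counts THAS1 stood at -0.14 ± 0.17 in lhp1-3 (adjusted p = 0.467) and was lower in importin123 at -0.50 ± 0.17 (adjusted p = 0.013), a call lost without Col-0 library 1 (-0.31), lhp1-3 library 1 (-0.42), importin123 library 1 (-0.42) or importin123 library 2 (-0.43).

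MRN1 was the member nearest the floor, with deposited counts between 2.80 and 3.57 times the floor in the mutant libraries and 12.9 and 19.9 times in Col-0. Its floor-subtracted level was 4.24 and 5.25 in lhp1-3, 4.68 and 3.02 in importin123, and 4.41 and 3.42 in Col-0. The libraries of the 3 genotypes overlapped. The log2 fold changes after subtraction were 0.28 ± 0.23 in lhp1-3 (adjusted p = 0.439) and -0.02 ± 0.23 in importin123 (adjusted p = 0.945), with 95% intervals of -0.17 to 0.73 and -0.47 to 0.43. On deposited counts they were -0.02 ± 0.15 and -0.28 ± 0.15 (adjusted p = 0.91 and 0.102). The sign in importin123 changed in 3 of the 15 alternatives after subtraction, so no direction can be given for MRN1 there.

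THAH, which acts on thalianol after THAS1, had a floor-subtracted level of 53.2 and 52.7 in lhp1-3, 47.3 and 40.1 in importin123, and 35.1 and 28.2 in Col-0. All 4 mutant libraries stood above both Col-0 libraries. It rose by 0.74 ± 0.14 in lhp1-3 (adjusted p = 0.0117) and by 0.47 ± 0.14 in importin123 (adjusted p = 0.0302). The lhp1-3 call was lost without Col-0 library 2 (0.59, adjusted p = 0.0621), lhp1-3 library 1 (0.74, adjusted p = 0.0819) or lhp1-3 library 2 (0.75, adjusted p = 0.0544). The importin123 call was lost without Col-0 library 2 (0.32), importin123 library 1 (0.36) or lhp1-3 library 2 (0.47, adjusted p = 0.0523), with only the 4 libraries compared (0.47) and with a floor 0.75 times as high (0.35). As RPKM it stood at 41.0 and 38.6 in lhp1-3, 34.5 and 32.8 in importin123, and 31.3 and 24.7 in Col-0. On deposited counts it stood at 0.06 ± 0.16 in lhp1-3 and -0.27 ± 0.16 in importin123, neither of which passed (adjusted p = 0.724 and 0.131).

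CYP705A5, the P450 that acts on the hydroxylated thalianol, was the most abundant member. Its floor-subtracted level was 123 and 150 in lhp1-3, 156 and 123 in importin123, and 135 and 92.6 in Col-0. Col-0 library 1 lay within the range of both mutants. The changes after subtraction were 0.27 ± 0.21 in lhp1-3 (adjusted p = 0.407) and 0.30 ± 0.21 in importin123 (adjusted p = 0.279), and neither passed. As RPKM it stood at 93.0 and 107 in lhp1-3, 110 and 98.0 in importin123, and 119 and 80.5 in Col-0. On deposited counts it was lower in lhp1-3 at -0.44 ± 0.19 (adjusted p = 0.0464) and in importin123 at -0.47 ± 0.19 (adjusted p = 0.0324). The first call was lost without Col-0 library 1 (-0.15), lhp1-3 library 1 (-0.26) or 2 (-0.59), or importin123 library 1 (-0.39) or 2 (-0.39), and the second without Col-0 library 1 (-0.19), lhp1-3 library 1 (-0.40), or importin123 library 1 (-0.41) or 2 (-0.38).

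CYP71A16 was called in both mutants. Its floor-subtracted level was 9.08 and 10.5 in lhp1-3, 14.7 and 11.6 in importin123, and 6.66 and 4.95 in Col-0. The genotypes did not overlap, with importin123 highest and Col-0 lowest. It rose by 1.18 ± 0.18 in importin123 (adjusted p = 0.00174), and this call held in all 15 alternatives, at 0.98 to 1.41 with adjusted p no higher than 0.0168. It rose by 0.75 ± 0.18 in lhp1-3 (adjusted p = 0.0266), a call lost without Col-0 library 2 (0.55), lhp1-3 library 1 (0.86) or lhp1-3 library 2 (0.65). As RPKM it stood at 8.26 and 8.84 in lhp1-3, 11.9 and 10.4 in importin123, and 6.10 and 4.54 in Col-0. On deposited counts it was higher in importin123 by 0.54 ± 0.14 (adjusted p = 0.0022), a call lost without Col-0 library 2 (0.35) and with DESeq2 (0.37, adjusted p = 0.055), and it stood at 0.24 ± 0.14 in lhp1-3 (adjusted p = 0.121).

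CYP705A12, the other P450 of the marneral cluster, had a floor-subtracted level of 19.4 and 20.2 in lhp1-3, 17.3 and 11.8 in importin123, and 13.9 and 10.3 in Col-0. Both lhp1-3 libraries stood above both Col-0 libraries, and the importin123 libraries overlapped with them. The change was 0.71 ± 0.20 in lhp1-3 (adjusted p = 0.0551) and 0.26 ± 0.20 in importin123 (adjusted p = 0.341), so neither passed, and in lhp1-3 it passed in 7 of the 15 alternatives, at 0.63 to 0.94. As RPKM it stood at 15.9 and 15.7 in lhp1-3, 13.7 and 10.6 in importin123, and 12.5 and 9.20 in Col-0. On deposited counts it stood at 0.10 ± 0.15 in lhp1-3 (adjusted p = 0.551) and was lower in importin123 at -0.37 ± 0.15 (adjusted p = 0.0324). That call was lost without Col-0 library 1 (-0.15), lhp1-3 library 1 (-0.30) or 2 (-0.37), or importin123 library 1 (-0.42) or 2 (-0.18).

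AT5G47980, a BAHD-type acyltransferase of the thalianol cluster, had the largest fold changes of the 7 after subtraction, and the largest SE. Its floor-subtracted level was 12.6 and 17.1 in lhp1-3, 24.5 and 17.5 in importin123, and 8.73 and 3.87 in Col-0. All 4 mutant libraries stood above both Col-0 libraries, which were themselves far apart. It rose by 1.74 ± 0.43 in importin123 (adjusted p = 0.0261), a call lost without importin123 library 1 (1.49, adjusted p = 0.103), and the value was 2.44 without Col-0 library 1 and 1.26 without Col-0 library 2. In lhp1-3 it stood at 1.24 ± 0.42 and did not pass (adjusted p = 0.112), except with DESeq2 (adjusted p = 0.00319) and without Col-0 library 1 (1.94). As RPKM it stood at 10.9 and 13.5 in lhp1-3, 18.7 and 15.0 in importin123, and 7.94 and 3.60 in Col-0. On deposited counts the changes of 0.64 ± 0.45 in lhp1-3 and 1.02 ± 0.45 in importin123 did not pass (adjusted p = 0.264 and 0.113).

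**Figure D2:**
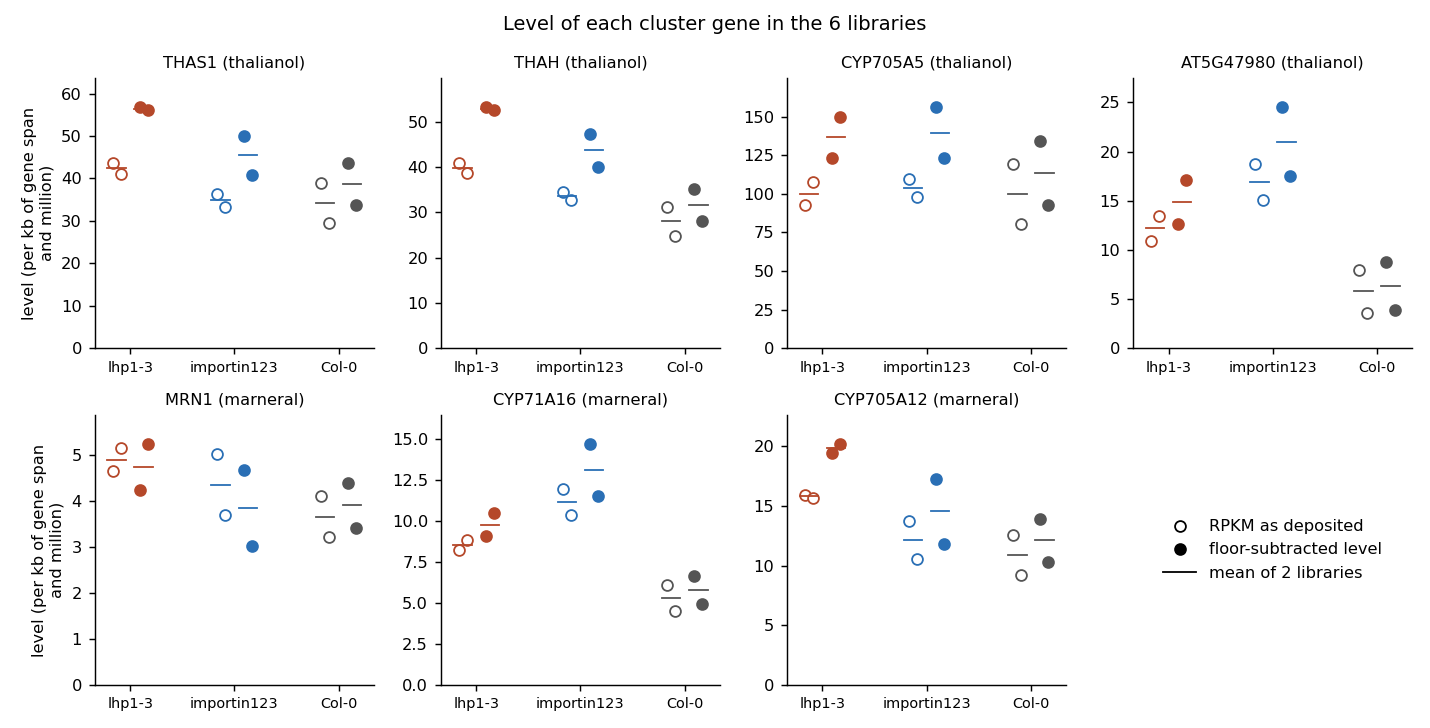
Level of each cluster gene per kb of gene span, scaled to library size (vertical axes, starting at 0) in lhp1-3, importin123 and Col-0; open points are the deposited RPKM, filled points the floor-subtracted level, each point is a library and short lines are means of 2 libraries. In the THAH, CYP71A16 and AT5G47980 panels all mutant points lie above both Col-0 points of the same kind, open or filled, and CYP705A5 has the highest axis, up to 156.

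Within a cluster the genes stood at different heights. Per kb of exon, which makes genes with and without introns comparable, the floor-subtracted level was 129 and 156 in lhp1-3, 163 and 128 in importin123, and 140.3 and 96.5 in Col-0 for CYP705A5. For THAH it was 111 and 109.6 in lhp1-3, 98.5 and 83.4 in importin123, and 73.1 and 58.7 in Col-0. For THAS1 it was 105 and 104 in lhp1-3, 92.6 and 75.5 in importin123, and 80.9 and 62.2 in Col-0. The order in Col-0 was CYP705A5, THAS1, THAH, then CYP705A12, CYP71A16, MRN1 and AT5G47980, where THAS1 and THAH overlapped, as did CYP71A16, MRN1 and AT5G47980. In lhp1-3 and in importin123 THAH stood above THAS1 in each library, although in importin123 their ranges overlapped. Next came CYP705A12, AT5G47980 and CYP71A16 in lhp1-3, the last 2 overlapping, and AT5G47980, CYP71A16 and CYP705A12 in importin123, all overlapping. MRN1 was lowest in both mutants, and per kb of exon it stood at 7.61 and 9.42 in lhp1-3, 8.41 and 5.43 in importin123, and 7.91 and 6.14 in Col-0.

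The replicate libraries of Col-0 and of importin123 differed together across members. In lhp1-3 library 1 was above library 2 for THAH and THAS1 after subtraction, and below it for the other members. Col-0 library 1 was above Col-0 library 2 for all 7 genes, and importin123 library 1 was above importin123 library 2 for all 7 after subtraction. The root markers, given as context for genes expressed mainly in roots, differed between the same libraries. The summed floor-subtracted level of 11 of 12 root epidermis and hair markers that passed the filters was 96.1 and 134 in lhp1-3, 289 and 252 in importin123, and 121 and 52.3 in Col-0. For 11 of 12 endodermis and vasculature markers it was 111 and 132 in lhp1-3, 151 and 132 in importin123, and 131 and 85.7 in Col-0. For 12 of 12 leaf photosynthesis genes it was 17271 and 21324 in lhp1-3, 15068 and 17055 in importin123, and 23404 and 24142 in Col-0. Of 7 root tip markers 1 passed the filters, and none of the 43 markers was at 0 RPKM in any library. In whole seedlings a larger share of root cells and more RNA per root cell cannot be told apart, and the part of root content in the members' changes was not tested.

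**Figure D3:**
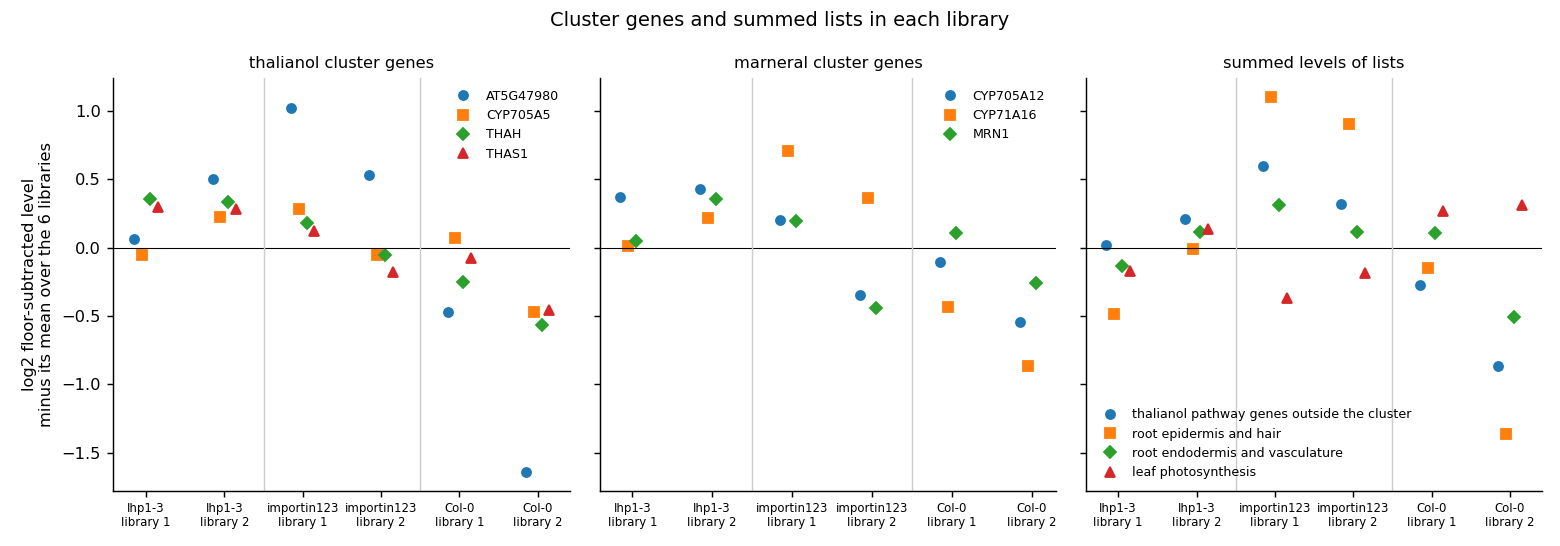
Log2 floor-subtracted level minus its mean over the 6 libraries (vertical axis) by library, for the thalianol genes, the marneral genes and the summed levels of 4 lists; each symbol is a gene or list. In the left and middle panels every gene is lower in Col-0 library 2 than in Col-0 library 1, and in the right panel the root epidermis sum does the same.

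Of the root epidermis list, 1 gene was called higher and 0 lower in lhp1-3, and 5 were higher and 1 lower in importin123, of 11 tested. Over all genes the shares were 9.1% higher and 7.18% lower in lhp1-3, and 19.3% higher and 21.7% lower in importin123. RHD6, a transcription factor that starts root hair growth, rose in both mutants, at 1.01 in lhp1-3 (adjusted p = 0.044) and 2.73 in importin123 (adjusted p = 0.00035). RSL4 (1.81) and LRX1 (1.97), genes of root hair growth, rose in importin123, and GL2, which blocks hair fate, fell by 0.84. Most of the higher calls in importin123 were lost without importin123 library 1, RSL4 and LRX1 among them, and RSL4 was also lost without importin123 library 2. Without Col-0 library 1, more genes of the list were called in both mutants. The share of all genes called also changes in such fits. The RHD6 call in lhp1-3 was lost without any library but Col-0 library 1 (0.67 to 1.08). RHD6 lay near the floor there, at a mean RPKM of 2.66 against floors of 1.53 and 1.44. Of the endodermis and vasculature list, 0 of 11 were called in lhp1-3 by edgeR or DESeq2, with 0 at an unadjusted p under 0.05, and in importin123 CASP5 (3.02) rose while CO2 (-1.40) and SCR (-0.61) were lower. The CASP5 call was lost without any 1 of 4 mutant libraries (2.98 to 3.08), and its mean floor-subtracted level in Col-0 was only 0.43 (SD 0.51). More of the list passed in both mutants without Col-0 library 1. On deposited counts the epidermis list had 3 higher and 1 lower of 12 in each mutant, the endodermis list 2 higher and 3 lower of 12 in each, and the root tip list 7 higher of 7 in each. These deposited counts also changed when single libraries were left out. Over all deposited features the shares were 41.8% higher and 33.5% lower in lhp1-3, and 42.3% higher and 33.2% lower in importin123. Of the leaf photosynthesis genes, 0 were higher and 4 lower in lhp1-3, and 4 were higher and 4 lower in importin123, of 12. Fewer were called lower in both mutants without Col-0 library 2. On deposited counts 0 of the 12 were higher and 12 lower in lhp1-3, and 3 higher and 8 lower in importin123.

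After floor subtraction, the 3 genes of the thalianol pathway that lie outside the 4-gene cluster changed in the direction of the cluster where they passed. AT5G47950 is another acyltransferase gene of the pathway, and AT3G29250 and AT1G66800 are its oxidoreductase genes. Their summed floor-subtracted level was 56.3 and 64.3 in lhp1-3, 83.9 and 69.3 in importin123, and 45.9 and 30.4 in Col-0. All mutant libraries stood above both Col-0 libraries. In lhp1-3 AT1G66800 rose by 1.40 ± 0.17 (adjusted p = 0.00181), while AT3G29250 (0.54) and AT5G47950 (0.40) did not pass. In importin123 all 3 rose, AT5G47950 by 1.06 ± 0.21, AT3G29250 by 1.05 ± 0.22 and AT1G66800 by 0.64 ± 0.17 (adjusted p = 0.00563, 0.01 and 0.0161). Of all genes tested, 9.1% were called higher in lhp1-3 and 19.3% in importin123. In importin123 AT3G29250 and AT1G66800 lost the call without importin123 library 1, and AT1G66800 also lost it without Col-0 library 2 (0.49 to 0.81 over the libraries left out). On deposited counts, where 41.8% of all features were higher in lhp1-3 and 42.3% in importin123, 1 of the 3 was called in each mutant. These were AT1G66800 in lhp1-3 (0.82 ± 0.13) and AT5G47950 in importin123 (0.50 ± 0.15), both higher. The thalianol cluster members called on those counts were lower, 1 in lhp1-3 and 2 in importin123. The pathway genes not called stood at 0.06 for AT5G47950 and -0.13 for AT3G29250 in lhp1-3, and at 0.30 for AT3G29250 and 0.14 for AT1G66800 in importin123 (adjusted p = 0.722, 0.529, 0.164 and 0.337).

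Among the 12 other oxidosqualene cyclases, 3 stood far enough above the floor to be tested. The share of all genes called higher was 9.1% in lhp1-3 and 19.3% in importin123. LUP1 and LUP2, which make lupeol and related triterpenes, rose in lhp1-3 by 1.04 ± 0.17 and 0.76 ± 0.17 (adjusted p = 0.00743 and 0.0221), and stood at 0.08 and -0.34 in importin123. CAS1, the cycloartenol synthase at the head of sterol synthesis, rose in importin123 by 0.35 ± 0.12 (adjusted p = 0.0396) and stood at -0.05 in lhp1-3. LUP1 lost its call without lhp1-3 library 1 (0.80), and LUP2 without Col-0 library 1, Col-0 library 2 or lhp1-3 library 1 (0.56 to 0.85). CAS1 lost its call without Col-0 library 2 or either importin123 library (0.24 to 0.37). LUP2 lay near the floor in importin123, at a mean RPKM of 2.52 against floors of 1.79 and 1.32. On deposited counts 10 of the 12 were called higher and 1 lower in lhp1-3, and 8 higher and 0 lower in importin123, where CAS1 stood at -0.28 and was not called. Over all deposited features 41.8% were higher in lhp1-3 and 42.3% in importin123.

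The genes that supply oxidosqualene and those of the competing sterol branch are given beside the share of all genes called after subtraction. That share was 9.1% higher and 7.18% lower in lhp1-3, and 19.3% higher and 21.7% lower in importin123. Of 17 tested genes from mevalonate to oxidosqualene, edgeR called 0 in lhp1-3, where 2 had an unadjusted p under 0.05 and DESeq2 called 1, and in importin123 3 were higher and 1 lower, with a median of 0.08. The 3 were the squalene epoxidase gene SQE2 (0.95) and the mevalonate diphosphate decarboxylase genes MVD2 (0.53) and MVD1 (0.32), and the lower one was SQE3 (-0.51). The direction of MVD1 differed between the versions. On deposited counts it was called lower in importin123 (-0.35, adjusted p = 0.0231), while MVD2 stood at 0.16 and was not called. MVD2 lost the call without any Col-0 or importin123 library (0.48 to 0.58), and MVD1 without Col-0 library 2, importin123 library 1 or either lhp1-3 library (0.22 to 0.33). Of 14 sterol synthesis genes, edgeR called 0 in lhp1-3, where 1 had an unadjusted p under 0.05 and DESeq2 called 1, and in importin123 HYD1 (0.45) and SMT3 (0.57) were higher and SMT1 (-0.35) was lower, with a median of 0.09. Without Col-0 library 2 none of HYD1, SMT3 and SMT1 passed, SMT3 was also lost without importin123 library 1, and SMT1 without Col-0 library 1 or importin123 library 2 (0.41 to 0.51, 0.46 to 0.69 and -0.43 to -0.25 over the libraries left out). On deposited counts most of both lists were called lower, against 33.5% of all features in lhp1-3 and 33.2% in importin123. Of 18 mevalonate genes 2 were higher and 15 lower in lhp1-3, and 2 higher and 14 lower in importin123. Of 14 sterol genes 0 were higher and 11 lower in lhp1-3, and 0 higher and 10 lower in importin123, where HYD1 (-0.29) and SMT3 (-0.15) were below 0 and not called.

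Genes of the chromatin machinery that acts on H3K27me3 or H2A.Z were listed as well, since both marks are known at these clusters. Of 18 tested, 7 were higher and 2 lower in lhp1-3, where 9.1% of all genes were called higher and 7.18% lower. In importin123, where 19.3% of all genes were called higher and 21.7% lower, 9 were higher and 3 lower. On deposited counts 6 were higher and 6 lower in lhp1-3, and 4 higher and 6 lower in importin123. There 41.8% and 42.3% of all features were higher in lhp1-3 and importin123, and 33.5% and 33.2% lower. Higher calls outnumbered lower ones only in the floor-subtracted version. In lhp1-3 the Polycomb gene EMF1 (1.71), PIE1 (1.499), which encodes a subunit of the complex that deposits H2A.Z, and the demethylase gene REF6 (0.93) rose. LHP1 (-1.02), the mutated gene, and the H2A.Z gene HTA9 (-0.49) fell there. In importin123 the H3K27 methyltransferase gene CLF (1.20), PIE1 (1.29) and the remodeller gene PKL (1.46) rose, and HTA9 (-0.57), ARP6 (-0.53), of the same H2A.Z complex, and FIE (-0.43), of the Polycomb complex, fell. Fewer genes of the list were called higher in lhp1-3 without lhp1-3 library 1, and in importin123 without Col-0 library 2. The share of all genes called also changes in such fits. HTA9 in lhp1-3 lost the call without Col-0 library 2 or either lhp1-3 library (-0.58 to -0.39). In importin123 ARP6 lost it without Col-0 library 2 or importin123 library 1 (-0.48 to -0.37), and FIE without either Col-0 library or importin123 library 1 (-0.45 to -0.39). The list was chosen with earlier results of these data known.

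The genes around the clusters were compared with the members. Of the 5 protein-coding genes on each side of the thalianol cluster, 8 of 10 could be tested after subtraction. In lhp1-3 1 was higher, AT5G47940 (0.66 ± 0.17), and 0 lower. In importin123 3 were higher, AT5G47950 described above, AT5G47940 (0.52 ± 0.17) and the Rab GTPase gene RABA4C (0.56 ± 0.17), and 0 lower. AT5G47940 lost the call in lhp1-3 without either lhp1-3 library or Col-0 library 2 (0.51 to 0.80). In importin123 it lost the call without either importin123 library or Col-0 library 2 (0.39 to 0.63). RABA4C lost it without any library but Col-0 library 2 (0.33 to 0.655). The medians of the flanking genes were 0.04 in lhp1-3 and 0.27 in importin123, against 0.64 and 0.38 for the 4 members. On deposited counts the medians of all 10 flanking genes were -0.10 in lhp1-3 and 0.02 in importin123, against -0.04 and -0.37 for the 4 members. There 3 of the 10 flanking genes were higher and 4 lower in lhp1-3, and 3 higher and 3 lower in importin123, where RABA4C stood at -0.09 and AT5G47940 at 0.19, neither called. The shares of all genes given for the members hold for these counts too.

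Around the marneral cluster 5 of 10 flanking genes could be tested. Their medians were -0.10 in lhp1-3 and 0.54 in importin123, against 0.71 and 0.26 for the 3 members, so in importin123 the flanking genes stood above the members. On deposited counts 6 of the 10 were higher and 4 lower in lhp1-3, and 6 higher and 2 lower in importin123. The deposited medians of all 10 were 0.80 in lhp1-3 and 1.01 in importin123, against 0.10 and -0.28 for the 3 members. There the flanking genes stood above the members in both mutants. XRN2, which encodes an exoribonuclease, rose in both mutants, by 1.22 ± 0.17 in lhp1-3 and 1.29 ± 0.17 in importin123 (adjusted p = 0.00378 in lhp1-3, a call lost without lhp1-3 library 1). AT5G42530, of unknown function, fell by 1.65 in lhp1-3 (adjusted p = 0.0318) and rose by 1.88 ± 0.35 in importin123, and the lhp1-3 call was lost without either lhp1-3 library or Col-0 library 2 (-1.88 to -1.42). AT5G42570, the nearest flanking gene, rose in importin123 by 0.54 ± 0.09, against -0.15 and no call there on deposited counts, and stood at -0.09 in lhp1-3. AT5G42560 was lower in importin123 at -0.35 ± 0.10, a call lost without any Col-0 or importin123 library. The noncoding genes between members, AT5G07035 in the thalianol cluster and AT5G06325 and AT5G06335 in the marneral cluster, lay at 0.627 to 1.99 times the floor and were not tested after subtraction. AT5G06325 and AT5G06335 overlap on opposite strands, and their reads cannot be told apart here.

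**Figure D4:**
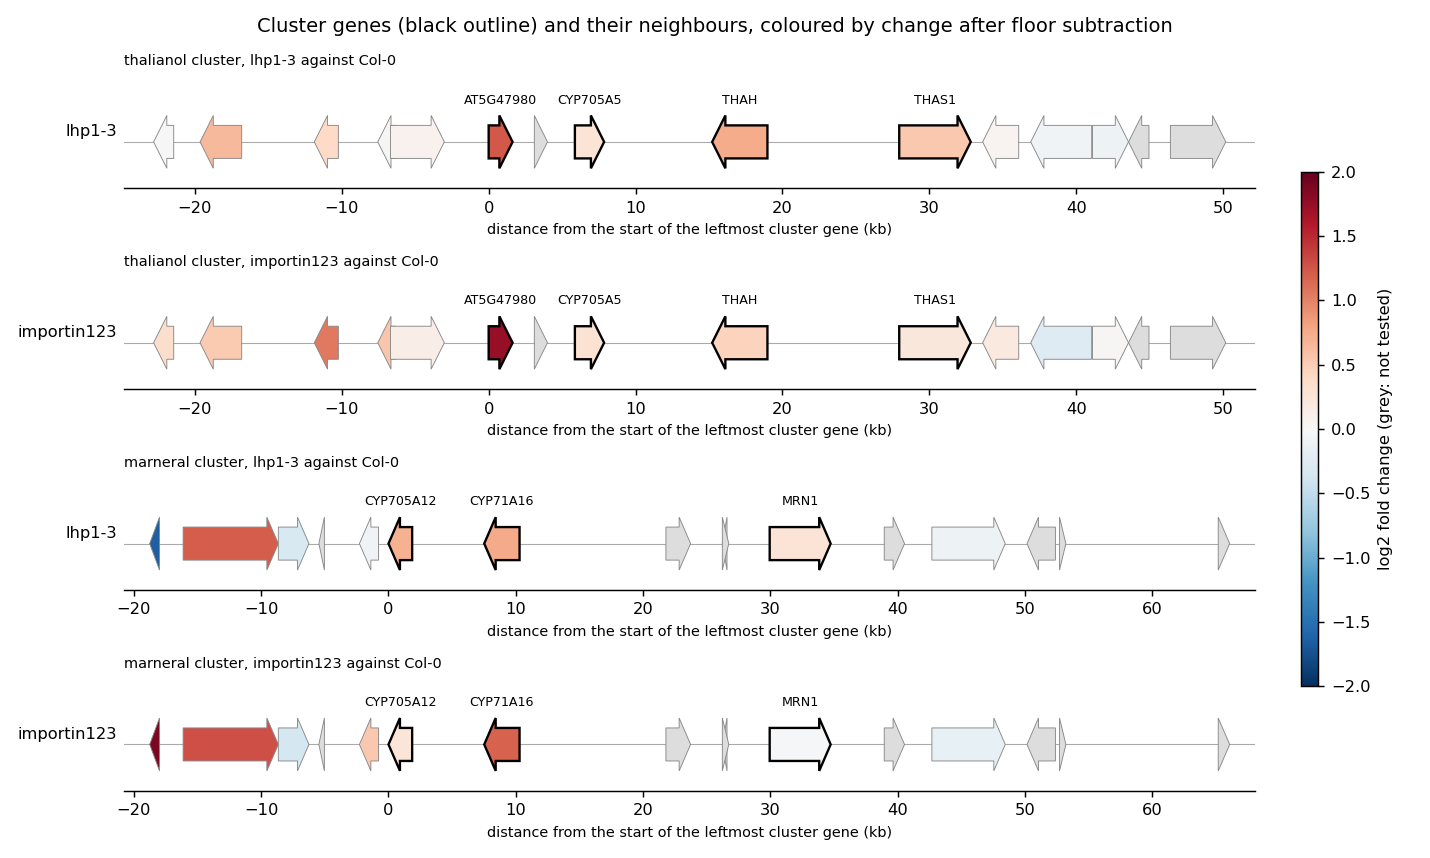
Genes of the thalianol (upper rows) and marneral (lower rows) clusters with their neighbours by distance in kb from the start of the leftmost cluster gene, in lhp1-3 and importin123 against Col-0; arrows point along the strand, black outlines mark the 7 members, and colour is the log2 fold change after floor subtraction, with grey for genes not tested. AT5G47980 and CYP71A16 have the strongest red of the members, and XRN2, the long arrow at the left of the marneral rows, is red in both mutants.

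No member was called when importin123 was set against lhp1-3. After subtraction 0 of 7 passed, against a background of 9.15% higher and 13.4% lower in importin123, with 1 of 7 at an unadjusted p under 0.05 and 0 by DESeq2. On deposited counts 0 of 7 passed, against 2.84% higher and 6.05% lower, with 3 of 7 at an unadjusted p under 0.05 and 0 by DESeq2. The floor-subtracted differences ran from -0.45 ± 0.20 for CYP705A12, whose importin123 libraries were both below the lhp1-3 libraries, to 0.50 ± 0.41 for AT5G47980, whose importin123 libraries were both above. CYP71A16 stood 0.43 ± 0.18 higher in importin123 (adjusted p = 0.119), with a 95% interval of 0.08 to 0.77. THAH (-0.28 ± 0.14) and THAS1 (-0.31 ± 0.16) were on the lower side in importin123, with no overlap of libraries and adjusted p of 0.193 and 0.196. The intervals of AT5G47980 (-0.30 to 1.31), CYP705A5 (-0.37 to 0.44), MRN1 (-0.75 to 0.15) and, by its upper end alone, THAS1 (-0.63 to 0.000416) held both directions. These intervals take a normal multiple of the SE and are narrower than the edgeR test implies. Those of CYP705A12 and THAH left out 0, yet their unadjusted p by that test was 0.0618 and 0.0831. The comparisons with Col-0 share the Col-0 libraries, so a like change in both mutants is not independent.

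The genes most like each cluster in their pattern over the 6 libraries were taken by the smallest root mean square difference from the mean of the members, on the log2 scale after subtraction and centring. For the thalianol cluster they were PHT4;2 (AT2G38060), a phosphate transporter gene, at 0.0688, AT1G34040 at 0.0742 and the expansin gene EXPB1 (AT2G20750) at 0.0849. For the marneral cluster they were AT5G22930 at 0.0621, EXPB1 at 0.0763 and AT2G38180 at 0.0783. The members stood at 0.15 for THAH to 0.47 for AT5G47980 from the thalianol mean. From the marneral mean they stood at 0.15 for CYP705A12 to 0.30 for CYP71A16. The genes named were picked for the smallest differences in a search over many genes, while the members were fixed by gene ID. Smaller values for the picked genes can follow from that search alone, so they do not show how alike the members are. The centred mean of the thalianol members was 0.16 and 0.33 in lhp1-3, 0.40 and 0.06 in importin123, and -0.18 and -0.77 in Col-0, and that of the marneral members was 0.14 and 0.33 in lhp1-3, 0.36 and -0.14 in importin123, and -0.15 and -0.54 in Col-0. Both means were lowest in Col-0 library 2.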

How the data were processed

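The authors deposited 1 table with a whole-number read count and an RPKM value per gene for 6 libraries of poly(A) RNA (500 ng input). Per the submitters' processing notes the tools were HISAT2, SAMtools, bedtools, FastQC and edgeR, and the build was TAIR10. Their versions and settings, and whether strand was used, are not stated in the sources used. The deposited RPKM is per kb of gene span and column total: 99.95% of lengths equalled the RefSeq TAIR10.1 span less 1 base, within 0.5 bases. Intron reads and reads of overlapping genes can enter the counts.

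Here the deposited counts went into edgeR 4.0.16 (R 4.3.3). Features passed filterByExpr, libraries were scaled by TMM, and all 6 entered one robust quasi-likelihood fit with two-sided tests, with Benjamini-Hochberg adjustment over all features tested and a threshold of 0.05. Every adjusted p is from this test unless another tool is named, and SE is the size of the log2 fold change over the root of its F. A 95% interval is a normal multiple of this SE on each side, which is narrower than the test implies. The same test was run after floor subtraction. The floor of a library was the median reads per kb over nuclear protein-coding genes of 1000 bp or more in the lowest 10%, times gene length. After this, 19700 nuclear genes were kept that had at least 2 times the floor and a mean of at least 10 subtracted counts, leaving out 109 genes that match an organelle genome (BLAST 2.17.0, 100 bp at 95% identity). Alternatives were RLE size factors, DESeq2 1.42.0, fewer libraries, the replicate number as a block, other filters, other floors and limma 3.58.1 on log2(RPKM + 1). The scripts were tested on simulated data. The members, lists and tests were chosen with earlier results of these data known. Named genes were the members, their neighbours, up to 3 genes per list, direction and mutant with the smallest adjusted p after subtraction, and the 3 genes most alike per cluster; leaf photosynthesis genes are given as counts. Replicates differed by more than sampling noise (chi-square per degree of freedom 21.9, 52.1 and 28.2 in lhp1-3, importin123 and Col-0), so none was counted as 1 library. With totals of 70137900 counts or more, the 2 libraries per genotype, more than depth, limited the precision.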

Additional observations from a re-analysis of the deposited data

Results flagged for a closer look

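By the test of importin123 against lhp1-3 after floor subtraction, the responses of the mutants differed for 14 of the neighbouring and listed genes named here. They did so for 0 of the 7 members. Over all genes 9.15% were called higher and 13.4% lower in importin123, so 0 of 7 says little about the members. The listed genes had been picked by their adjusted p against Col-0. Positive log2 values are higher in importin123. Beside the marneral cluster they were 3.53 for AT5G42530 and 0.63 for AT5G42570. Among pathway genes they were -0.76 for AT1G66800 of the thalianol pathway, -0.95 for LUP1, -1.10 for LUP2, 0.40 for CAS1, -0.34 for SQE3 and 0.50 for HYD1. Among chromatin genes they were -0.79 for EMF1, 0.44 for CLF and 1.07 for LHP1, the gene mutated in lhp1-3. Among root markers they were 1.72 for RHD6, -1.64 for CO2 and -0.70 for SCR. The adjusted p of these 14 genes ran from 0.00174 to 0.0497. LUP1, CAS1, AT1G66800, SQE3, HYD1, EMF1 and CLF lost the call without at least 1 library, SQE3 without any but importin123 library 2.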

How the results depend on the processing

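With 2 libraries per genotype and a fit that lends a lone library the spread of the others, the member counts depended on single libraries. The share of all genes called also changes between these fits, so the ranges below are not set against a share. Over the libraries left out in turn, the deposited count ran from 0 to 2 in lhp1-3 (1 with all libraries), from 1 to 5 in importin123 (4 with all) and from 0 to 2 between the mutants (0 with all). After subtraction it ran from 0 to 5 in lhp1-3 (2 with all), from 1 to 3 in importin123 (3 with all) and was 0 between the mutants. In lhp1-3 the deposited count was 0 with only the 4 libraries compared, with a mean of at least 20 counts and with nuclear features only, and 4, all higher, with each limma fit on RPKM (53.5% to 53.8% of all features higher). In importin123 it was 2 with nuclear features only and with each limma fit, and between the mutants it was 1 with only the 4 libraries compared. The subtracted count in lhp1-3 was 5 with DESeq2, which called 12.4% of all genes higher, and 4 with only the 4 libraries compared (8.72%). The limma fits turned the sign of the deposited calls, with log2(RPKM + 1), with or without its filter, to 0.0267 for CYP705A5 in lhp1-3 and to 0.0787 for CYP705A5, 0.0393 for THAS1 and 0.151 for CYP705A12 in importin123, and with log2(RPKM + 0.1) to 0.0272, 0.0796, 0.0407 and 0.163, none of them called; they carry no TMM scaling. With limma the share of calls that were higher was 81.2% in lhp1-3 and 80.6% in importin123 over all features, against 55.5% and 56.1%. The replicate numbers did not pair the libraries: same-numbered differences correlated across genes at -0.0868 (lhp1-3 and Col-0), -0.0972 (importin123 and Col-0) and 0.0421 (importin123 and lhp1-3). With the replicate number as a block the deposited counts were 0 in lhp1-3, 4 in importin123 and 1 between the mutants. Of all features in that fit, 40.9% were higher and 33.2% lower in lhp1-3, and 41.4% higher and 32.9% lower in importin123. The subtracted counts were 4, 3 and 0, with THAS1 and CYP705A12 gaining the call in lhp1-3 (7.58% of all genes higher). The no-filter, RLE and floor alternatives left the counts within 1.5 times.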
